A study of Rattus norvegicus with 10 samples.

Results

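Transforming growth factor beta (TGF-beta) signalling was followed in cultured rat Sertoli cells through 10 genes, namely the ligands Tgfb1, Tgfb2, Tgfb3 and Bmp6, the latency protein gene Ltbp1, the receptors Acvr2b and Amhr2, and the signal transducers Smad2, Smad3 and Smad4. The genes were taken from a fixed list of symbols, which was chosen with earlier results of these data known. They are read by 15 of the 8740 probe sets that remained on the array without its controls. Of these 15, 12 were bright enough to test, and each of the 10 genes kept at least 1 of them. No member passed the test against untreated cultures at any time (limma, adjusted p under 0.05), where 0.676%, 0.856%, 0.766% and 0% of all 4439 tested probe sets did at 2, 4, 8 and 24 h. The differences from 0 h with an unadjusted p under 0.05 were lower values of Tgfb3 at 4 h and higher values of Bmp6 at 4 h and of Ltbp1 at 8 and 24 h. With the replicate number as a block, those of Tgfb1 (higher) and Amhr2 (lower) at 8 h joined them.

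Follicle-stimulating hormone (FSH), the pituitary hormone that acts on Sertoli cells through a receptor coupled to cAMP, had been given for 2, 4, 8 or 24 h. Untreated cultures at 0 h were the control. All cultures came from 20-day-old rats, of a strain that the labels do not give, and total RNA was read on 10 Affymetrix arrays, 2 (n = 2) at each time. The labels name no untreated culture at a later time, so the effects of FSH and of hours in culture cannot be told apart. Where a time has a pair of values, they are those of replicate 1 and replicate 2. The labels do not say whether replicates were separate cultures, so p-values measure the spread between these arrays, which may be technical.

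TGF-beta ligands are secreted as dimers held inactive by their own propeptide, which latent TGF-beta binding proteins such as the product of Ltbp1 tether to the matrix. The freed ligand joins type II and type I receptor kinases. These phosphorylate Smad2 and Smad3, which enter the nucleus with the shared partner Smad4. Bone morphogenetic proteins such as Bmp6 and anti-Müllerian hormone, the ligand of Amhr2, signal through other Smads that use Smad4 too. In the testis, TGF-beta ligands are known for loosening the junctions between Sertoli cells, with Tgfb3 the best studied of them, and Sertoli cells themselves make and bind anti-Müllerian hormone.

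The Sertoli label was checked against marker genes. Of 13 listed Sertoli markers 11 were on the array, and all 11 were tested. Their summed intensity was 13392 to 18080 among arrays of replicate 2 and 17271 to 23697 among those of replicate 1. Clu alone had 6791 to 9813 in replicate 2 and 9259 to 13806 in replicate 1. Of 16 tested Sertoli probe sets, 6 were called lower and 0 higher in replicate 2, where 15.2% of all tested were called either way. The sums of germ cell markers differed more, at 2196 to 2585 in replicate 2 and 260 to 902 in replicate 1. Within replicate 1 they fell with time, from 902 at 0 h to 556, 537, 479 and 260 at 2, 4, 8 and 24 h. Within replicate 2 they were 2204, 2568, 2196, 2585 and 2354 from 0 to 24 h. Of 6 tested germ cell probe sets, 3 were called higher and 0 lower in replicate 2. Of the 12 germ cell probe sets, 2 were never above the floor, the lowest intensity taken as measured (13.5). Peritubular myoid markers summed to 2903 on the 24 h replicate 1 array and to 335 to 1052 on the other 9 arrays. On that 24 h array a probe set of Acta2 had 1363 and a probe set of Tagln had 405. Acta2 and Tagln are also on the list of TGF-beta targets used below. Endothelial markers summed to 83.2 to 192, Leydig markers to 47.0 to 150 and macrophage markers to 140 to 229, with 5 of 10 macrophage probe sets never above the floor. The 3'/5' ratio of the beta-actin control lay between 1.48 and 1.76 in replicate 2 and between 0.928 and 1.17 in replicate 1. In RNA of a whole culture, fewer cells of a type and less RNA per cell cannot be told apart.

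**Figure D1:**
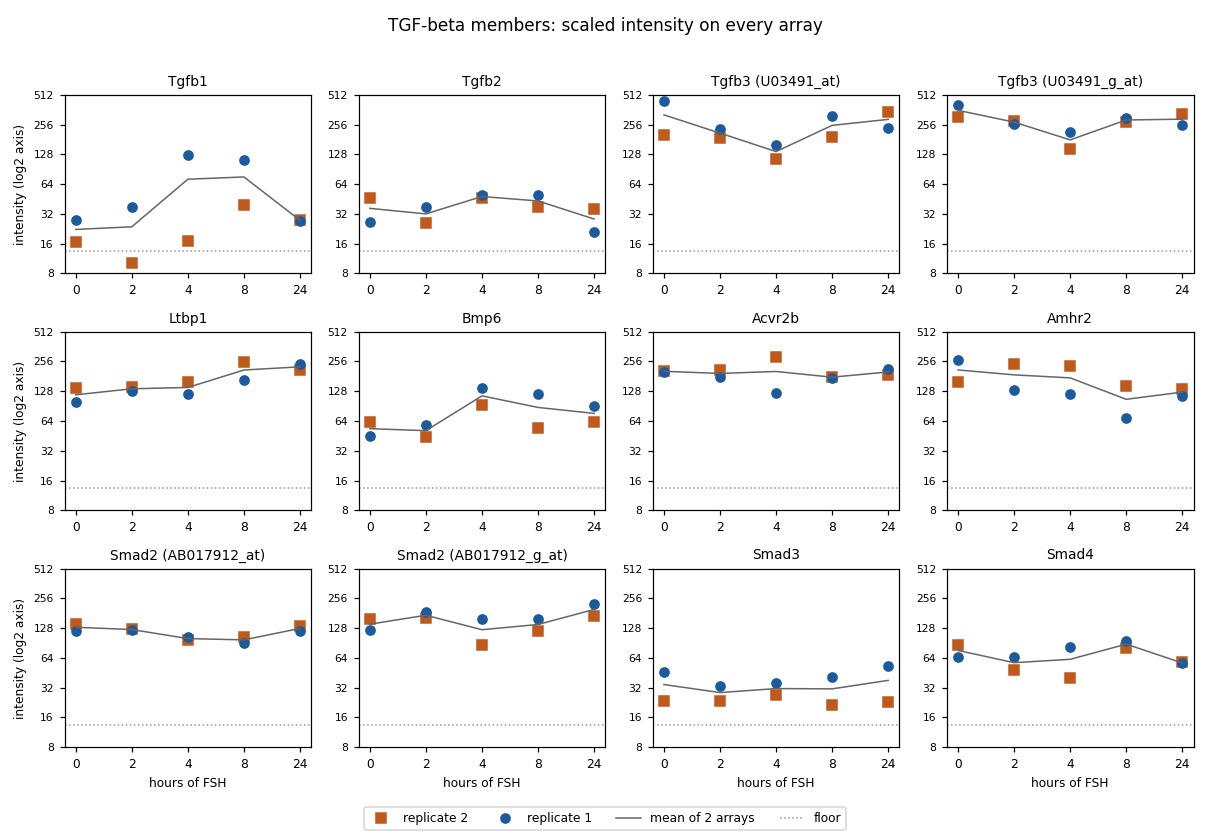
Scaled intensity (log2 axis) of the 12 tested member probe sets on each of the 10 arrays, by hours of FSH. Squares are replicate 2, circles replicate 1, the line joins the means of both arrays, and the dotted line is the floor of 13.5. Both Tgfb3 probe sets are lowest at 4 h, and Ltbp1 is highest at 8 and 24 h.

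Tgfb3 gave the same picture on both of its probe sets. On the first (U03491_at) the intensity was 439 and 201 at 0 h, 232 and 188 at 2 h, 158 and 114 at 4 h, 311 and 191 at 8 h, and 237 and 340 at 24 h. Both 4 h arrays lay below every array of the other times, and the untreated arrays lay far apart. On the second (U03491_g_at) it was 408 and 305 at 0 h, 261 and 280 at 2 h, 213 and 145 at 4 h, 296 and 273 at 8 h, and 253 and 327 at 24 h. Here too both 4 h arrays were the lowest of the 10. The probe sets correlated at r = 0.89 over the 10 arrays, which they share. Set against 0 h, Tgfb3 at 4 h averaged 136 ± 31.2 against 320 ± 168 on the first probe set and 179 ± 48.5 against 356 ± 72.7 on the second (SD, n = 2 each). The log2 changes were -1.14 ± 0.46 and -1.00 ± 0.34 (limma SE), which is 2.21-fold and 2.01-fold lower at 4 h, with 95% intervals of -2.17 to -0.12 and -1.77 to -0.24.

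These differences failed the correction over all 4439 tested probe sets (limma, adjusted p = 0.510 and 0.355, unadjusted 0.0324 and 0.0156). They failed it too with the replicate number as a block (adjusted p = 0.189 and 0.144). The value was lower at 4 h than at 0 h within both replicate numbers, by log2 changes of -1.47 and -0.82 on the first probe set and -0.93 and -1.07 on the second. Control replicate 1 carried much of the first value: without it the log2 change was -0.58 on the first probe set and -0.80 on the second, and without control replicate 2 it was -1.71 on the first. At 2 h the changes were -0.51 and -0.38, at 8 h -0.29 and -0.31, and at 24 h -0.07 and -0.29. From the lowest mean to the highest, the times ran 4, 2, 8, 24 and 0 h on both probe sets. Between 4 and 2 h, the 2 lowest, the arrays did not overlap, but the change of -0.63 (first) or -0.62 (second) missed the test (adjusted p = 1.00 for both, limma). The 3 highest times, 8, 24 and 0 h, overlapped on the first probe set. On the second, both 8 h arrays lay below both 0 h arrays, with an adjusted p of 0.887 (limma).

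Tgfb1, the founding ligand of the family, was low and uneven. Its intensity was 27.9 and 16.6 at 0 h, 37.1 and 10.2 at 2 h, 126 and 16.9 at 4 h, 112 and 39.2 at 8 h, and 27.4 and 27.6 at 24 h. The 2 high values at 4 and 8 h were both on replicate 1 arrays, and 1 array at 2 h was under the floor. At 8 h both arrays lay above both 0 h arrays, with a log2 change of 1.62 ± 0.94 (SE). Its interval of -0.50 to 3.74 was the widest of the 12 probe sets at that time, and the test was missed (limma, adjusted p = 0.692, and 0.248 with the block). At 4 h the change was 2.18 within replicate 1 and 0.03 within replicate 2.

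Tgfb2 had 26.4 and 46.2 at 0 h, 37.8 and 26.1 at 2 h, 49.8 and 46.0 at 4 h, 49.2 and 37.1 at 8 h, and 20.9 and 35.8 at 24 h. The array values of every treated time overlapped those of 0 h. Its log2 changes were -0.15, 0.45, 0.29 and -0.35 at 2, 4, 8 and 24 h, none past the test. At 4 h the interval ran from -0.64 to 1.55.

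Bmp6 encodes a bone morphogenetic protein. Its tested probe set (X58830_at) had 45.0 and 62.1 at 0 h, 58.1 and 44.1 at 2 h, 138 and 92.3 at 4 h, 121 and 55.0 at 8 h, and 90.7 and 62.1 at 24 h. Both 4 h arrays lay above all arrays of 0 and 2 h. At 4 h Bmp6 averaged 115 ± 32.1 against 53.6 ± 12.1 at 0 h (SD, n = 2 each), a log2 change of 1.09 ± 0.45 (SE, interval 0.07 to 2.12). That missed the test (limma, adjusted p = 0.553, unadjusted 0.0390, adjusted p = 0.249 with the block). The change within replicate 1 was 1.61 and within replicate 2 it was 0.57. At 4 h against 2 h the change was 1.16 (unadjusted p = 0.0310, adjusted 1.00, limma). The other Bmp6 probe set (U66298_at) was too dim to test. It lay between 8.84 and 45.0, was under the floor on 3 arrays, and had its highest 2 values, 45.0 and 34.1, at 8 h. By mean, Bmp6 ran from 2 and 0 h, which overlapped, through 24 and 8 h to 4 h, and the arrays of those last 3 times overlapped with their neighbours.

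Ltbp1, whose product holds latent TGF-beta in the matrix, had an intensity of 99.1 and 136 at 0 h, 128 and 143 at 2 h, 120 and 159 at 4 h, 166 and 254 at 8 h, and 242 and 210 at 24 h. Both arrays at 8 h and both at 24 h lay above every array of 0, 2 and 4 h. The mean was 226 ± 22.5 at 24 h against 118 ± 26.4 at 0 h (SD, n = 2 each), 1.94-fold, a log2 change of 0.95 ± 0.35 (SE, interval 0.17 to 1.74). At 8 h it was 210 ± 62.4, a change of 0.82 (interval 0.03 to 1.60). Neither passed the test. The limma adjusted p was 0.996 at 24 h (unadjusted 0.0223) and 0.512 at 8 h (unadjusted 0.0425), and with the block 0.308 and 0.208. At 24 h the change was 1.29 within replicate 1 and 0.62 within replicate 2, and at 8 h 0.74 and 0.90. On the 24 h replicate 1 array, where the myoid markers were high, Ltbp1 had 242. Without that array the 24 h change was 0.85. Ordered by mean from low to high, the times ran 0, 2, 4, 8 and 24 h, and the arrays of 0, 2 and 4 h overlapped, as did those of 8 and 24 h. Of the members, Ltbp1 had the smallest p in limma's F test over all times (0.0882, adjusted 0.845), and 44 probe sets, 0.991% of those tested, passed that test. With the block its adjusted p in the F test was 0.308, and 3.22% of all passed. The tested probe sets of other genes most like Ltbp1 over the 10 arrays were those of Ncbp2 (Pearson r = 0.92), Hmgb1 (0.92) and Gnptg (0.85). These correlations rest on shared arrays and carry no test.

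Promoter sequence is shown for Ltbp1, Tgfb3 and Bmp6, the members with an unadjusted p under 0.05 in a comparison with 0 h without the block (limma). Tgfb1 and Amhr2, under that threshold with the block alone, are not shown. Each run is the 250 bases before the start of the gene in RefSeq's rat assembly GRCr8, all on the minus strand and written 5′ to 3′ in the direction of the gene. FSH raises cAMP, and the cAMP response element is the palindrome TGACGTCA, of which TGACG is the shorter core. Capitals mark the palindrome, or the core (here in the reverse direction) where the palindrome was not found.
Ltbp1 (chr6:26177302-26177551): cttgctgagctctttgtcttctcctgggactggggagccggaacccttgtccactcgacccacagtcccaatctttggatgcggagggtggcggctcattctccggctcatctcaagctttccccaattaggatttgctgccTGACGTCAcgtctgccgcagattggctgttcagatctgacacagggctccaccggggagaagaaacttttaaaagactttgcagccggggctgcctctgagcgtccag
Tgfb3 (chr6:111456947-111457196): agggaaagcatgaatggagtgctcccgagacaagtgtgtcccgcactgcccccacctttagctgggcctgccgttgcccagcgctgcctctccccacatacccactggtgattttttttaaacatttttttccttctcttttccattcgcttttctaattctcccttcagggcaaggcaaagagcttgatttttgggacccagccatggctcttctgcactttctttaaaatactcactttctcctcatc
Bmp6 (chr17:26675262-26675511): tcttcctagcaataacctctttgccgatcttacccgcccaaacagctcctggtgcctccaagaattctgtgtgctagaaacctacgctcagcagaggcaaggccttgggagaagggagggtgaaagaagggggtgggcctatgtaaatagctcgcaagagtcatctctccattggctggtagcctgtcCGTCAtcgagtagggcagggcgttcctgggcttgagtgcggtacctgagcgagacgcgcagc
The palindrome lay 108 to 101 bases before the Ltbp1 start, and Ltbp1 was the only one of the 10 genes with it in this window. Among all 33469 rat promoter windows of this length, 1.59% held it on either strand. The core, which every palindrome contains, was in windows of Ltbp1, Bmp6, Smad3 and Tgfb1, and in 18.2% of all windows. Tgfb3 held neither in these letters. A match describes the sequence and does not show that a factor binds there.

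Both receptors are type II kinases. Amhr2, the receptor of anti-Müllerian hormone, had 262 and 158 at 0 h, 132 and 243 at 2 h, 120 and 230 at 4 h, 69.1 and 143 at 8 h, and 115 and 136 at 24 h. The arrays of 8 h and of 24 h lay below both 0 h arrays, while 2 and 4 h overlapped with 0 h. The log2 change was -1.03 ± 0.51 at 8 h (SE, interval -2.18 to 0.11) and -0.70 at 24 h (-1.85 to 0.44). Neither passed (limma, adjusted p = 0.595 and 0.996, and 0.272 at 8 h with the block). At 8 h the change was -1.92 within replicate 1 and -0.14 within replicate 2. Leaving out single arrays moved it: without control replicate 1 it was -0.67, and without 8 h replicate 1 it was -0.51. Amh, the gene of the ligand, was not called at any time and had 299 and 152 at 8 h against 350 and 229 at 0 h.

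Acvr2b, an activin receptor, differed little between times in its means on the brighter probe set (M87067_at). The values were 201 and 206 at 0 h, 178 and 209 at 2 h, 123 and 283 at 4 h, 175 and 180 at 8 h, and 213 and 188 at 24 h. Both 8 h arrays were slightly below both 0 h arrays, and the other times overlapped with 0 h. The log2 changes lay between -0.20 and -0.02, and the interval at 24 h was -0.93 to 0.88. The dim probe set (L10640_s_at) was under the floor on 8 of 10 arrays and was not tested.

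Smad2 transduces the TGF-beta and activin signal. On its first probe set (AB017912_at) it had 121 and 140 at 0 h, 123 and 126 at 2 h, 104 and 96.6 at 4 h, 91.6 and 104 at 8 h, and 119 and 135 at 24 h. Both arrays at 4 h and both at 8 h were below the 0 h arrays, with log2 changes of -0.38 and -0.42, neither past the test (limma, adjusted p = 0.999 and 0.767). The second probe set (AB017912_g_at) had 124 and 157 at 0 h, 185 and 161 at 2 h, 160 and 87.2 at 4 h, 158 and 121 at 8 h, and 227 and 169 at 24 h. Its change at 8 h was -0.01, and both arrays lay above 0 h at 2 and 24 h (0.31 and 0.49, not past the test). The pair correlated at r = 0.45 over the 10 arrays. The remaining Smad2 probe set (rc_AI228675_at) lay between 10.1 and 37.2 and was not tested.

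Smad3, which acts beside Smad2, had 45.6 and 23.3 at 0 h, 33.5 and 23.7 at 2 h, 35.8 and 26.9 at 4 h, 40.7 and 21.7 at 8 h, and 53.1 and 22.8 at 24 h. Every time overlapped with 0 h, and the log2 changes lay between -0.21 and 0.10. The mean over all arrays, 32.7, was just above the limit of 32.0 for testing.

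Smad4, the shared partner, had 65.6 and 86.9 at 0 h, 66.2 and 48.5 at 2 h, 83.5 and 40.4 at 4 h, 95.9 and 80.7 at 8 h, and 56.3 and 57.7 at 24 h. Both 24 h arrays lay below both 0 h arrays, and the other times overlapped with 0 h. The log2 changes were -0.41, -0.38, 0.22 and -0.41 at 2, 4, 8 and 24 h, none past the test.

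**Figure D2:**
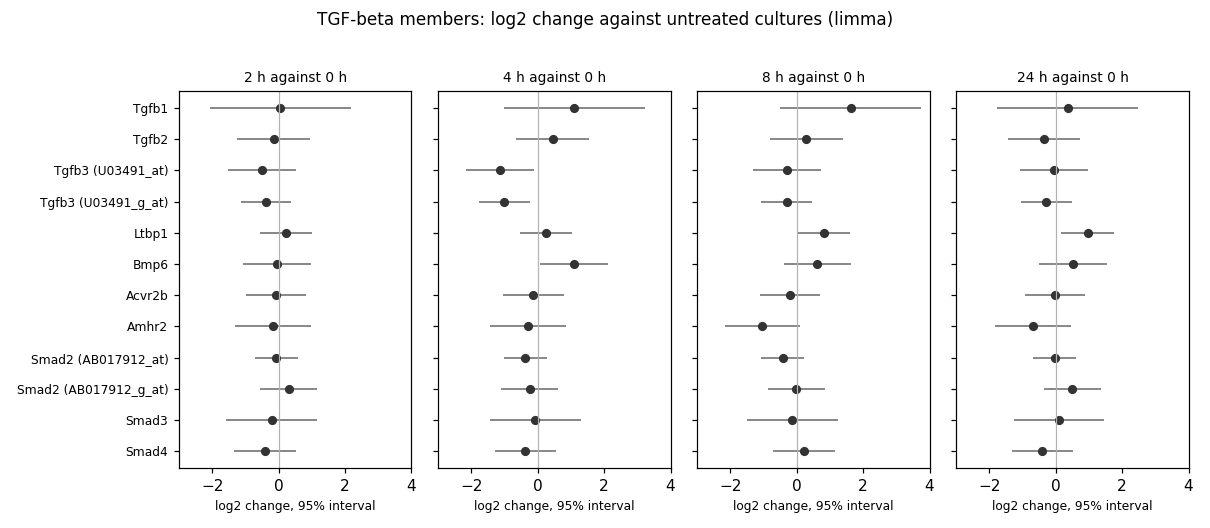
Log2 change against 0 h of the 12 tested member probe sets at 2, 4, 8 and 24 h. Points are limma estimates from 2 arrays per time and lines are 95% intervals not corrected for the number of probe sets. The intervals that leave out 0 are those of both Tgfb3 probe sets and Bmp6 at 4 h and of Ltbp1 at 8 and 24 h.

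Counted over the 12 tested probe sets, limma called 0 at 2 h, 0 at 4 h, 0 at 8 h and 0 at 24 h against 0 h. Beside the shares called over all probe sets, 0.676% at 2 h, 0.856% at 4 h, 0.766% at 8 h and 0% at 24 h, a count of 0 among 12 is near the background. With the replicate block the members again had 0 calls at each time, against 1.22%, 2.95%, 2.68% and 0.0901% of all. At an unadjusted p under 0.05, 0, 3, 1 and 1 of the 12 member probe sets passed at 2, 4, 8 and 24 h, where 4.57%, 7.75%, 9.3% and 4.6% of all did. With the block it was 0, 3, 3 and 1, against 7.5%, 12.2%, 15.5% and 9.26% of all. The further 2 at 8 h were Tgfb1 (unadjusted p = 0.0287, interval 0.21 to 3.04, limma) and Amhr2 (0.0339, -1.97 to -0.10). Both arrays lay above both 0 h arrays in 1, 1, 2 and 2 of the 12 at 2, 4, 8 and 24 h, and below in 1, 3, 4 and 2. Over all probe sets 11.9%, 15%, 17.7% and 15.9% lay above and 12.3%, 13%, 17.2% and 13.4% below. The median log2 change of the 12 was -0.12, -0.18, -0.07 and -0.03 at 2, 4, 8 and 24 h, beside -0.02, -0.03, -0.02 and 0.02 over all tested. At 4 h against 2 h, 8 h against 4 h and 24 h against 8 h, limma called 0 member probe sets each, where 0%, 0% and 0.225% of all were called. With the block it again called 0 of the 12 in each, against 0%, 0.0901% and 1.15% of all. Without the block, 1, 0 and 0 of the 12 had an unadjusted p under 0.05, against 3.6%, 3.42% and 6.49% of all. With the block it was 1, 2 and 0, for which the share of all is not given here. The 2 were both Tgfb3 probe sets, higher at 8 h than at 4 h (limma, unadjusted p = 0.0432 and 0.0428, adjusted p = 0.669 for each). Non-overlapping arrays were higher in 2, 3 and 3 and lower in 4, 0 and 3 of the 12, where 15.2%, 13.8% and 18.1% of all were higher and 12.1%, 15.2% and 17.5% lower.

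Replicate 2 was also set against replicate 1, over all 5 times. Tgfb1 had lower values in replicate 2 at 0, 2, 4 and 8 h and 27.6 against 27.4 at 24 h, with 10.2 to 39.2 in replicate 2 and 27.4 to 126 in replicate 1 over all times. The log2 difference was -1.32 ± 0.40 (SE, interval -2.22 to -0.43), just outside the threshold (limma with time in the model, adjusted p = 0.0529). Smad3 was lower in replicate 2 at all 5 times, 21.7 to 26.9 against 33.5 to 53.1 in replicate 1, a log2 difference of -0.80 ± 0.28 (adjusted p = 0.0875). Of the 12 probe sets, 0 passed and 2 had an unadjusted p under 0.05, where 15.2% and 30.1% of all did. Whether any passed changed when single arrays were left out. The germ cell markers and the beta-actin ratio given above differed between the numbers in the same arrays, and their part in these differences was not tested.

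**Figure D3:**
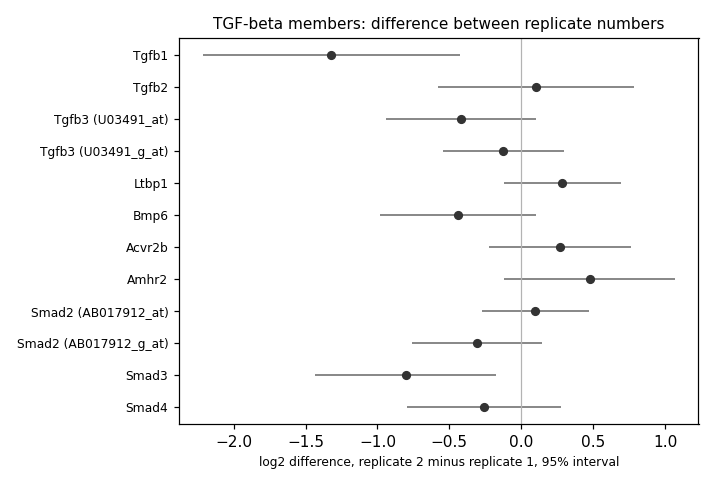
Log2 difference between replicate numbers (replicate 2 minus replicate 1) of the 12 tested member probe sets, from limma with time in the model and 5 arrays of either number. Lines are 95% intervals, and those of Tgfb1 and Smad3 lie below 0.

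Other genes of the pathway were read from lists by role. On the array were 62 of 95 listed genes, of which 33 were bright enough to test on 59 probe sets. Of these 59, 4 were called higher at 2 h, 2 at 4 h, 4 at 8 h and 0 at 24 h, and 0 were called lower at any time. Over all probe sets 0.631%, 0.856%, 0.743% and 0% were called higher and 0.0451%, 0%, 0.0225% and 0% lower. With the block 6, 6, 6 and 1 of the 59 were called higher and 0 lower, against 1.15%, 2.64%, 2.3% and 0.0901% of all higher and 0.0676%, 0.315%, 0.383% and 0% lower. The median log2 change of the 59 was 0.25, 0.21, 0.30 and 0.49 at the 4 times, beside the medians near 0 of all tested probe sets. The lists were written with earlier results of these arrays known, so these counts are no independent evidence.

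Among other ligands and subunits, 3 genes were tested of 14 on the array. Inha, the inhibin alpha subunit that pairs with activin beta subunits, was called higher at 8 h, with 2944 and 1456 against 287 and 141 at 0 h (10.3-fold, limma adjusted p = 0.0302). With the block this probe set was called higher at 2, 4 and 24 h too (2.54-fold, 6.80-fold and 5.38-fold, adjusted p = 0.0403, 0.00048 and 0.0140). Its other probe set had 1796 and 768 against 363 and 167 and was called with the block alone (adjusted p = 0.0015, without it 0.180), as it was at 4 h (adjusted p = 0.0037, without it 0.258). Amh and Inhba were not called.

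Of the extracellular regulators, 8 genes were tested of 17 on the array. The call at 2, 4 and 8 h was that of Plat, which encodes a plasminogen activator. It turns plasminogen into plasmin, which can free TGF-beta from its latent complex. Plg, the gene of plasminogen, was never above the floor, with 2.40 to 10.5, and was not tested. Plat had 211 and 156 at 2 h against 30.1 and 26.8 at 0 h, and 19.4-fold the 0 h level at 8 h (adjusted p = 0.0012, limma). The other 13 probe sets of this role, among them those of the binding proteoglycans Dcn and Bgn, were not called.

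Receptors and Smads of the wider pathway were mostly dim. Of 7 further receptor genes on the array 1 was tested, the type I activin receptor Acvr1b, which ranged from 39.6 to 67.8 and was not called. Both probe sets of Tgfbr1, the type I TGF-beta receptor, lay under the limit for testing, with 1.82 to 39.5. Smad7, the inhibitory Smad that TGF-beta induces in many cells, was above the floor on 1 array only, with 14.7. Of the Smads and co-regulators 2 genes were tested of 5 on the array, and 0 of their 3 probe sets were called.

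All 19 target genes on the array were tested, on 37 probe sets. Calls were made for 3 probe sets at 2 h, 1 at 4 h and 2 at 8 h, and with the block for 4, 3 and 3. Id3, an inhibitor of differentiation that bone morphogenetic proteins induce, had 610 and 575 at 2 h against 106 and 117 at 0 h (5.32-fold, limma adjusted p = 0.0093). By 24 h it had 58.2 and 63.0, below both 0 h arrays. The other Id3 probe set was called at 2 h with the block alone (4.55-fold, adjusted p = 0.0299, without it 0.0545, limma). Junb, an AP-1 subunit, was called on both probe sets at 2 h, 1 of them with 936 and 898 against 176 and 203 at 0 h (4.86-fold, adjusted p = 0.0124). The other Junb probe set was called at 4 h too with the block alone (3.68-fold, adjusted p = 0.0139, without it 0.0732, limma). Lox, the lysyl oxidase that cross-links collagen, had 187 and 133 at 8 h against 1.19 and 13.8 at 0 h. There 1 array was under the floor (11.6-fold, log2 change 3.54 ± 0.38, limma adjusted p = 0.0037). This Lox probe set was also the 1 called at 4 h, with 65.3 and 77.1 (5.21-fold, limma adjusted p = 0.0313). The changes were smaller on other Lox probe sets. At 8 h rc_AI234060_s_at was called (6.52-fold, adjusted p = 0.0390), and S77494_s_at with the block alone (5.86-fold, adjusted p = 0.0481, without it 0.175). Pmepa1, which restrains Smad signalling in a feedback loop, was called with the block alone at 4 h (1052 and 454 against 395 and 171, adjusted p = 0.0218, without it 0.877). Id3, Junb, Inha, Plat and Lox are known to respond to other signals too. The TGF-beta targets Klf10 and Tsc22d1 were not called at any time, though their values were not flat. Tsc22d1 had 2089 and 2092 at 4 h and 817 and 1985 at 8 h, against 1090 and 1023 at 0 h. At 4 h Klf10 had 87.2 and 82.1 against 29.7 and 45.8 at 0 h on rc_AI071299_at. On rc_AI172476_at it had 219 and 135 against 122 and 82.7. Its probe set U88630_at was not tested.

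**Figure D4:**
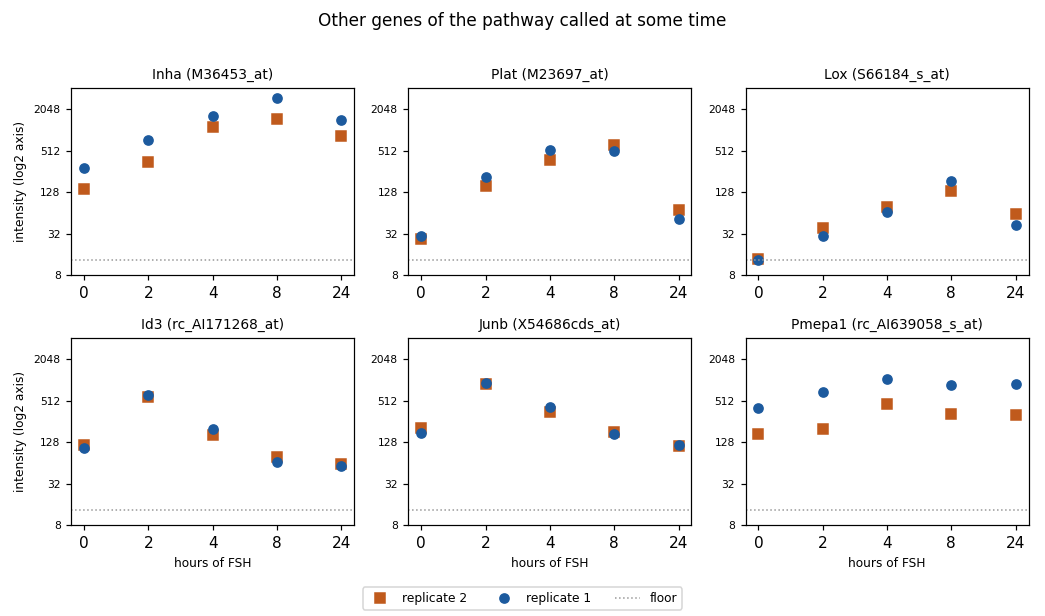
Scaled intensity (log2 axis) by hours of FSH of the 6 further pathway genes called at some time, each on the probe set with the smallest adjusted p with the block. Squares are replicate 2, circles replicate 1, and values under the floor of 13.5 are drawn at it. Id3 and Junb peak at 2 h, while Inha and Lox are highest at 8 h. Plat is highest at 8 h in replicate 2 and at 4 h in replicate 1.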

How the data were processed

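The authors deposited a linear intensity for every probe set on every array; their scaling is not given in the sources used here. Arrays were brought to a common 75th percentile of 108 with factors of 0.909 to 1.13. A floor of 13.5, which is that percentile over 8, replaced lower values before log2. Means and SDs are of scaled intensities without the floor. The 59 control probe sets were left out of 8799, and 4439 of the other 8740 had a mean of at least the pooled median of 32.0 and were tested. Symbols came from the platform's table (1 symbol for 7006 probe sets, several for 308, none for 1426), and 6985 matched the RefSeq table by gene identifier with 0 symbols changed. All 10 members matched a RefSeq promoter window (GRCr8).

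The test was that of limma 3.58.1 run under R 4.3.3 (1 mean per time, 5 residual degrees of freedom, eBayes with an intensity trend), with Benjamini-Hochberg adjustment over all 4439 probe sets and a threshold of 0.05. The fit was run on simulated data with added changes larger than any member's limma change between times in this fit. That check therefore does not cover changes of the members' size. The 2 h array without a replicate number was taken as replicate 1, and the first control array, whose title gives no time, as 0 h. Deviations of same-numbered arrays correlated in all 10 pairs of times (r = 0.11 to 0.70), so the numbers were taken as pairing the arrays, and a fit with them as a block left 4 residual degrees of freedom. All 10 members are described, other pathway genes are named where called, and Ltbp1 was set beside its 3 most similar probe sets because no member was called and it had the smallest F-test p. Members and lists were chosen with earlier results of these data known. The number of arrays limits the precision.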

Additional observations from a re-analysis of the deposited data

How the results depend on the processing

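Across 23 other settings no member probe set was called in any comparison of times, and the smallest adjusted p was 0.0922 (Tgfb3 at 4 h against 0 h, replicate block with quantile normalization). The settings were the replicate block, values as deposited, quantile normalization, floors of the 75th percentile over 4 or over 16, no filter, a stricter filter, no intensity trend, each array left out, and 5 combinations with the block chosen after seeing the data. The replicate block changed no member's call. Tgfb3 at 4 h, Bmp6 at 4 h and Ltbp1 at 8 and 24 h kept their sign in every setting that tested them, with arrays left out giving log2 changes of -1.71 to -0.58 and -1.28 to -0.72 for Tgfb3, 0.80 to 1.38 for Bmp6, and 0.51 to 1.13 at 8 h and 0.72 to 1.19 at 24 h for Ltbp1. Between replicate numbers the count of called members, 0, became 1 with quantile normalization (Tgfb1), 2 without the intensity trend (Tgfb1 and Smad3) and 0 to 3 with 1 array left out. The 3, reached without either 0 h array, were Tgfb1, Bmp6 and Amhr2, and the 1 without either 24 h array was Tgfb1. The cause was not tested. Counts over all probe sets moved more: with the block they were 54, 131, 119 and 4 at 2, 4, 8 and 24 h, against 30, 38, 34 and 0 without it. With 1 array left out they ran from 0 to 31 at 2 h (0 without 2 h replicate 1), 8 to 28 at 4 h (8 without 4 h replicate 1) and 5 to 26 at 8 h (5 without 8 h replicate 1), and were 0 at 24 h.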
